A study of Mus musculus with 12 samples.

Results

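The Id family has 4 genes in the mouse, Id1, Id2, Id3 and Id4, and all 4 were found among the 14664 genes with a read in direct RNA sequencing of differentiating P19 cells. A read was counted for a member when its poly(A) call carried the quality tag PASS, its transcript was of class mRNA and its gene name was that of the member. The 12 libraries held 158 such reads of Id1, 502 of Id2, 1002 of Id3 and 132 of Id4, and each member passed the minimum of 30 reads that 9355 genes met for testing. P19 is a wild-type mouse embryonal carcinoma cell line, and all libraries came from this 1 line. D0 cells were undifferentiated and kept in serum medium without retinoic acid, whereas D2, D4 and D6 cells had spent 2, 4 or 6 days in NDiff 227 medium with 500 nM retinoic acid on poly-L-lysine, so medium, coating and retinoic acid changed together. Each day had 3 replicate libraries of poly(A)-selected RNA. The study's methods call them biological replicates without saying whether they were separate cultures, so p-values measure the spread between these libraries.

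Id proteins are helix-loop-helix proteins without the basic region that binds DNA. They pair with the ubiquitous E proteins (Tcf3, Tcf4 and Tcf12) and so keep them from partnering tissue-specific activators such as the neurogenins. Their genes are classical targets of BMP receptors acting through SMAD1 and SMAD5, and they are known for holding neural precursors back from neuronal differentiation.

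Library depth ran from 130162 to 642548 mRNA reads, and the D2 libraries were the shallowest. Levels are given as CPM, reads per 1000000 mRNA reads after TMM scaling, and need no correction for length because 1 read stands for 1 molecule. The level that 3 reads correspond to lay between 5.02 and 22.3 CPM, so Id1 and Id4 were close to the limit of detection in several libraries. The 13 sequencing runs each held a single day, and run and day cannot be told apart. The labelled cell type was checked against its markers at D0, where Pou5f1 (Oct4) averaged 1566 CPM, although Zfp42 and Dppa5a, also on the list of 7 undifferentiated cell markers, had no read. Summed CPM of that list, at D0 mostly Pou5f1, was 1567 to 1825 in D0 libraries and at most 11.0 in any later one. Utf1 (53.35 CPM at D0), Tdgf1 (42.9) and Nanog (10.5) had reads at D0 only. Esrrb, also on the list, went the other way, with 1 read at D0 and 9 at D6. The 6 neural progenitor markers summed to between 639 and 667 CPM at D0 and between 2312 and 2669 at D6, mostly through Vim (347 to 1627 CPM) and Fabp7 (3.15 to 507 CPM). Sox2, on the same list, was called lower at D6 (242 to 181 CPM, adjusted p = 0.0232, limma-voom). That call was lost without any of several single libraries, with adjusted p of up to 0.168 (without the third D6 library). Sox1, Pax6 and Nes had their highest means at D2. The 8 neuron markers summed to between 421 and 467 CPM at D0, between 111.5 and 195 at D2 and between 2009 and 2159 at D6. The 7 astrocyte and glial markers summed to between 97.1 and 122.9 CPM at D0 and between 30.8 and 44.8 at D6. In that list Slc1a3 (57.4 to 18.0 CPM) and Aldoc (50.2 to 1.95 CPM) were called lower at D6, Slc1a2 had 24 reads, 19 of them at D6, Gfap and Aldh1l1 had 1 read each, and Aqp4 and S100b had none. The 6 endothelial markers summed to at most 3.74 CPM. Those of mesoderm and endoderm summed to at most 14.7 CPM, and those of fibroblasts and smooth muscle to between 35.1 and 41.9 CPM at D0 and at most 6.40 at D6. These marker levels moved with the days, and their part in the differences between days given here was not tested. In bulk libraries, fewer cells of a type and less RNA per cell cannot be told apart.

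Id3 showed the largest change of the 4 members. The D0 libraries had 28.5, 25.1 and 23.4 CPM, the D2 libraries 111.5, 103.0 and 122.5 CPM, the D4 libraries 408.2, 461.4 and 363.5 CPM, and the D6 libraries 332.7, 338.8 and 320.8 CPM. No day overlapped another, and the order of levels was D4, D6, D2 and D0. Id3 was 4.30-fold higher at D2 than at D0 (log2 2.11, SE 0.28, adjusted p = 1.14e-07, limma-voom with Benjamini-Hochberg adjustment over 9355 genes), 15.5-fold higher at D4 (log2 3.96, SE 0.24, adjusted p = 9.29e-20) and 12.6-fold higher at D6 (log2 3.65, SE 0.24, adjusted p = 2.28e-18). It also rose between D2 and D4 (log2 1.85, SE 0.19, adjusted p = 4.85e-10). From D4 to D6 the log2 difference was -0.30 (SE 0.12) and did not pass the test (adjusted p = 0.121), although it did so when the third D4 library was left out (log2 -0.40, adjusted p = 0.0484).

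Id3 lies at chr4:136143497-136145392 on the plus strand of mm10, with 3 exons in the transcript that took 99.7% of its reads. RefSeq places its start at base 136143822, and the commonest first base of the reads was 136143838, 16 nt downstream, shared by 175 of 1002 reads. Reads of this kind start at the poly(A) tail and usually stop a few bases short of the cap. The promoter is shown because the reads began there and not at the annotated first base of the transcript further upstream. The 300 bases from 250 before to 50 after the RefSeq start (GRCm38.p6, chr4:136143572-136143871, plus strand) are printed with matches on either strand in capitals for the TATA-type motif (letters TATAA), the CCAAT box (named by its letters) and the GC box (letters GGGCGG).
Id3 promoter: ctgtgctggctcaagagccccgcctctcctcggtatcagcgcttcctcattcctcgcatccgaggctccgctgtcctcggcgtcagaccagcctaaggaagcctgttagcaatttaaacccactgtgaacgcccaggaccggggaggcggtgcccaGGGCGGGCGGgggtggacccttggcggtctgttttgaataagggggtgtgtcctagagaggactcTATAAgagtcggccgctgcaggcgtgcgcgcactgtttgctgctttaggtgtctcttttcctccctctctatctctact
A TATAA match begins 29 bases before the start, and GGGCGG matches begin 94 and 90 bases before it and overlap each other. TATAA is held by 24.9% and GGGCGG by 35.7% of the 32851 RefSeq promoters of this length. CCAAT, which 37.4% of promoters hold, had no match here.

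Id2 was the most abundant member at D0 and was first called higher at D4. It stood at 68.0, 61.9 and 72.1 CPM in the D0 libraries and at 59.5, 47.8 and 93.1 CPM in the D2 libraries, which overlap them. The D4 libraries had 131.1, 146.5 and 146.7 CPM and the D6 libraries 163.2, 144.1 and 156.5 CPM. All 6 later libraries were above the highest of the D0 and D2 libraries, and D4 and D6 overlapped. Id2 was 2.12-fold higher at D4 than at D0 (log2 1.08, SE 0.19, adjusted p = 1.20e-05, limma-voom) and 2.27-fold higher at D6 (log2 1.18, SE 0.19, adjusted p = 8.69e-07). The D2 against D0 difference was log2 -0.06 (SE 0.27, adjusted p = 0.937). Between D2 and D4 Id2 rose by log2 1.14 (SE 0.26, adjusted p = 0.00337), a call that was lost without the second D2 library (log2 0.83, adjusted p = 0.181). Between D4 and D6 the difference was log2 0.10 (SE 0.17, adjusted p = 0.793).

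Id2 lies on the minus strand at chr12:25093799-25097140. Reads were divided between a transcript with 80.1% of them, which has an extra upstream exon and begins at base 25097140, and a shorter one with 19.9%, which begins at the RefSeq start of 25096092. The commonest first base, 25096079, lay 13 nt downstream of the RefSeq start and was shared by 186 of 502 reads, and 66.1% of all Id2 reads began between 30 nt before the RefSeq start and 30 nt after it. Median mapping quality was 1, and the division between the transcripts is not given as isoform use.
Id2 promoter (GRCm38.p6, chr12:25096043-25096342, minus strand, capitals as above): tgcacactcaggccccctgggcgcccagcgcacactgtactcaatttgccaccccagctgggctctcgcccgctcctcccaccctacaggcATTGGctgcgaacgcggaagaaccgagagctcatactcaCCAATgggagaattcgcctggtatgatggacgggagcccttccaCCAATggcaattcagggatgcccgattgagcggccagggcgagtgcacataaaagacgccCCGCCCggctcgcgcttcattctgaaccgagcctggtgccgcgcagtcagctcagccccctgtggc
CCAAT matched 3 times, beginning 159, 120 and 76 bases before the start, the first of them on the opposite strand, and GGGCGG matched once on the opposite strand, 16 bases before it. Of the 3 promoters, those of Id2 and Id4 also held GGCGCC, a GC-rich element to which BMP-activated SMADs are known to bind, beginning 231 and 148 bases before their starts, a motif found in 11.9% of promoters.

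Id4 was near the limit of detection up to D4, and of the days sampled it was called higher only at D6. The D0 libraries had 6.58, 8.37 and 9.74 CPM, from 3, 5 and 5 reads. The D2 libraries had 7.43, 14.7 and 9.80 CPM from 1, 4 and 2 reads, and the D4 libraries 22.5, 8.75 and 2.13 CPM from 6, 4 and 1 reads. The D6 libraries had 106, 77.9 and 71.9 CPM from 33, 40 and 28 reads, all above every earlier library. Id4 was 9.11-fold higher at D6 than at D0 (log2 3.19, SE 0.42, adjusted p = 1.77e-08, limma-voom) and 10.4-fold higher at D6 than at D4 (log2 3.38, SE 0.47, adjusted p = 3.92e-07), the latter at log2 2.59 without the third D4 library, which held 1 read. Against D0, D2 differed by log2 0.56 (SE 0.63, adjusted p = 0.649) and D4 by log2 -0.19 (SE 0.59, adjusted p = 0.854). With 7 and 11 reads on these days, the fitted 95% intervals of the fold ran from 0.627 to 3.48 at D2 and from 0.393 to 1.95 at D4, so that smaller changes were not detectable at this depth.

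Id4 lies on the plus strand at chr13:48261228-48266026, with 3 exons and an annotated transcript of 3849 nt, far longer than those annotated for the other members. At sites 2416 nt and 1513 nt upstream of the annotated end, 58.3% and 17.4% of Id4 reads ended, so most molecules were shorter than annotated. Of its reads, 13.6% began between 30 nt before the RefSeq start and 30 nt after the annotated one, which lies downstream of it. Within 30 nt of the RefSeq start began 60.1% of Id1, 66.1% of Id2 and 68.8% of Id3 reads, and the median Id4 read began 706 nt downstream of the RefSeq start.
Id4 promoter (GRCm38.p6, chr13:48260866-48261165, plus strand, capitals as above): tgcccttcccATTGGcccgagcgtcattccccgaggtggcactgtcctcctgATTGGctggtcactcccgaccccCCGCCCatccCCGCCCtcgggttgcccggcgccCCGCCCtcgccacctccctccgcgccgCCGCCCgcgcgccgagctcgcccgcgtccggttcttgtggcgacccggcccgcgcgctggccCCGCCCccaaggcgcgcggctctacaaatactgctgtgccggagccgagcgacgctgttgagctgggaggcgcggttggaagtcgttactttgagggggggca
GGGCGG matched 5 times, beginning 175, 165, 142, 115 and 53 bases before the start and always on the opposite strand, and CCAAT matched at 240 and 198 bases before it. G and C made up 73.3% of the Id4 window, 63.3% of that of Id2 and 60% of that of Id3, against a median of 52.7% over all promoters. CANNTG, the E-box bound by E proteins and their partners and held by 72.3% of promoters, matched only once, in Id2, 196 bases before the start.

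Id1 was the only member that no comparison called. The D0 libraries had 30.7, 53.6 and 35.1 CPM, the D2 libraries 7.43, 18.4 and 19.6 CPM, the D4 libraries 22.5, 24.1 and 44.6 CPM, and the D6 libraries 35.2, 38.9 and 38.5 CPM. Each D2 library was below every other library, but the 3 of them together held 10 Id1 reads, and the first held 1. At D2 Id1 was 0.443 of its D0 level (log2 -1.17, SE 0.47, adjusted p = 0.106, limma-voom; unadjusted p = 0.0167), and the difference was log2 -0.44 (adjusted p = 0.801) with every library thinned to the depth of the smallest. The difference from D0 was log2 -0.36 (SE 0.31, adjusted p = 0.426) at D4 and log2 -0.06 (SE 0.29, adjusted p = 0.906) at D6. Id1 lies on the plus strand at chr2:152736251-152737410, and its spliced transcript of 2 exons took 96.8% of its reads. The commonest first base, 152736278, was 27 nt downstream of the annotated start.

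**Figure D1:**
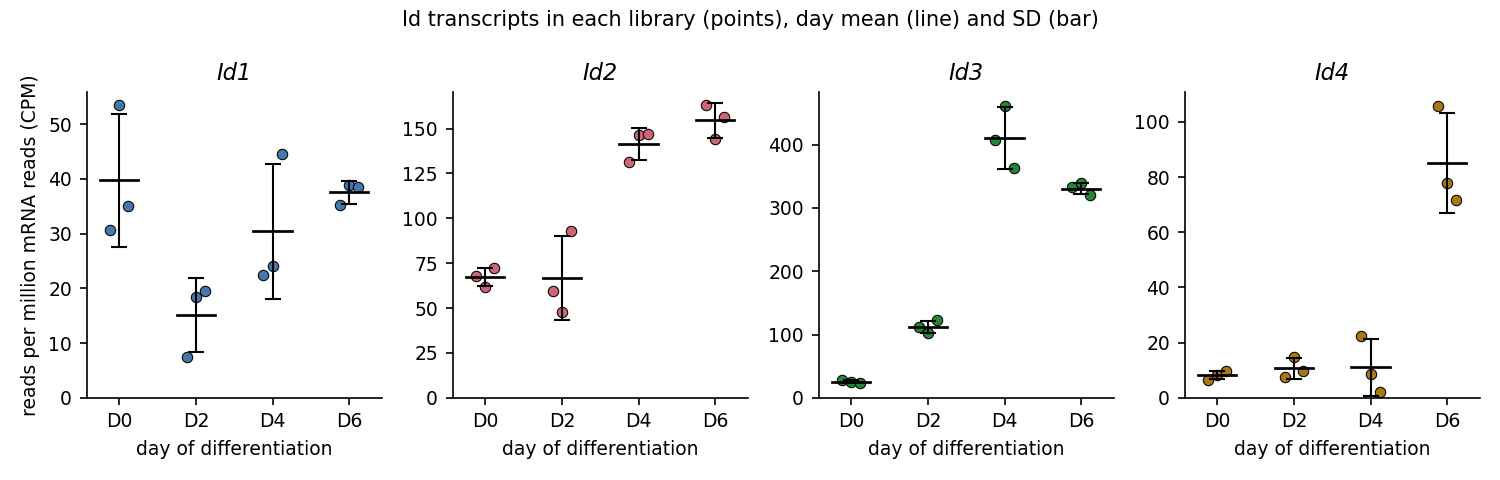
CPM of Id1, Id2, Id3 and Id4 (y axis, a separate linear scale for each gene) in the 3 libraries of D0, D2, D4 and D6 (points), with the day mean (horizontal line) and SD (bar). Id3 climbs from 25.7 CPM at D0 to 411 at D4, Id2 reaches its later level at D4, Id4 is high at D6 alone, and Id1 has its lowest points at D2.

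Read against all genes, 1 of 4 members was called higher at D2 compared with D0, where 4.72% of all genes were called higher and 6.06% lower. At D4, 2 of 4 were called higher, against 12.9% of all genes (12.5% lower), and at D6, 3 of 4 against 19.4% (18.1% lower). Id2 and Id3 were called higher in D4 against D2 (2.15% of all genes) and Id4 in D6 against D4 (4.24%). No member was called lower in any of the 5 comparisons. Of 9355 genes, 103 were called lower in D4 against D2 and 378 in D6 against D4, so with 4 members nothing is read from that. The comparisons with D0 share the same D0 libraries. A two-sided exact permutation test over libraries gave 0.10, the smallest p that 3 against 3 allows, for each of the 9 called differences.

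The sum of the 4 members rose from 141 ± 7.61 CPM (SD, n = 3) at D0 to 205 ± 34.7 2 days later, and it stood at 594 ± 42.7 CPM by D4 and 608 ± 25.5 CPM by D6. The composition of this sum changed as well. At D0, Id2 gave 47.9% ± 5.51 of the Id reads, Id1 28.0% ± 6.99, Id3 18.3% ± 2.63 and Id4 5.83% ± 1.03. At D2 Id3 had become the leading member with 55.3% ± 5.03, followed by Id2 with 32.0% ± 6.00. Id3 gave 69.1% ± 3.45 at D4 and 54.4% ± 2.12 at D6, when Id2 gave 25.4% ± 1.32 and Id4 13.9% ± 2.33. Id1 fell to between 5.21% and 7.33% of the Id reads on the later days, while its own level at D6 was 37.5 ± 2.05 CPM compared with 39.8 ± 12.1 at D0. At D0 the 4 members did not overlap in CPM and stood in the order Id2, Id1, Id3 and Id4, and at D6 they did not overlap in the order Id3, Id2, Id4 and Id1. At D2 and D4, Id1 and Id4 overlapped or met at their ends and could not be ordered. Within libraries the log2 ratio of Id2 to Id3 went from 1.36 ± 0.20 at D0 to -0.78 ± 0.35 at D2, and was -1.53 ± 0.19 in D4 and -1.09 ± 0.12 in D6 libraries. Each of these shifts had an exact permutation p of 0.10, or 0.129 adjusted over the 18 ratio comparisons made.

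**Figure D2:**
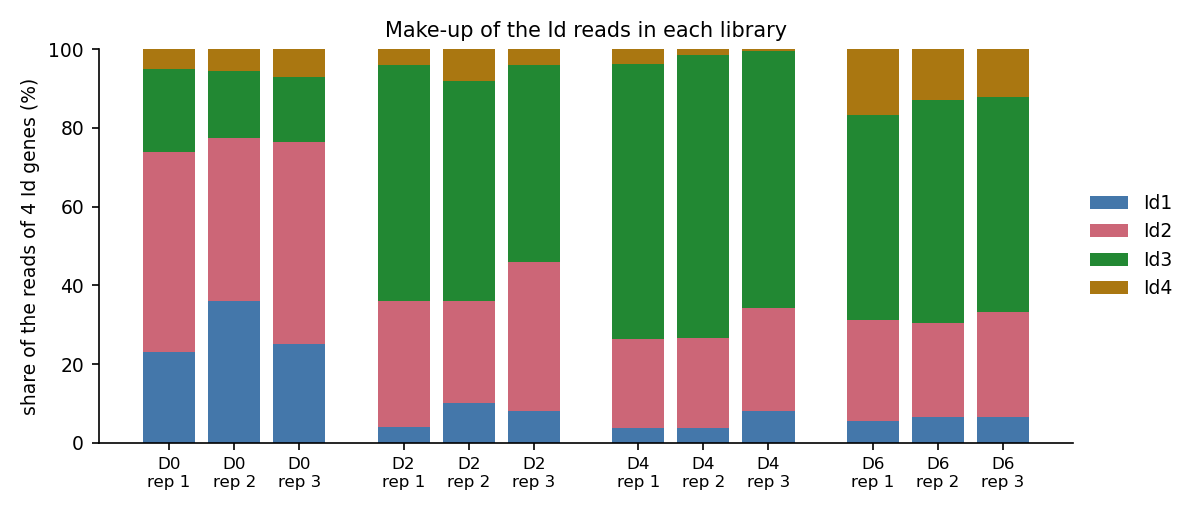
Share of each member in the reads of the 4 Id genes (y axis, percent) in each of the 12 libraries (bars, grouped by day). Id3 takes between 16.7% and 21.3% at D0 and between 50% and 72.0% in later libraries, and Id4 takes between 12.2% and 16.6% at D6.

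The levels could also be followed by sequencing run. Id3 ran from 11.9 to 34.4 CPM (here without TMM scaling) in the 3 runs of D0, from 102 to 120 in the 3 of D2, from 325 to 431 in the 3 of D4 and from 274 to 458 in the 4 of D6. Id4 ran from 76.5 to 122 CPM in the D6 runs and from 6.26 to 16.9 in all runs of the other days. Id2 ran from 54.4 to 78.3 in D0 runs, from 50.8 to 90.2 in D2 runs and from 122 to 214 in D4 and D6 runs. Every D2 run was above every D0 run for Id3, and every D4 and D6 run above every D2 run.

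The poly(A) tail protects an mRNA and supports its translation, and its shortening usually comes before decay. Tail length was read from each molecule, and no difference from D0 passed the test for any member that could be tested. Id3 had median tails of 127, 142 and 127 nt in the D0 libraries, 100.3, 105 and 132 nt at D2, 126, 132 and 117.5 nt at D4 and 119, 128 and 121 nt at D6. Its read-weighted difference from D0 was -18.7 nt (SE 14.4, adjusted p = 0.748, limma) at D2, -7.18 nt (SE 12.6, adjusted p = 0.925) at D4 and -9.41 nt (SE 12.7, adjusted p = 0.801) at D6. The medians of 2 D2 libraries lay below all those of D0 and that of the third did not, and no difference passed the test.

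The library medians of Id2 were 126, 127 and 141 nt in D0 libraries, 156.5, 96.8 and 135.5 nt in D2 libraries, 110.5, 137 and 129 nt in D4 libraries and 136, 132 and 135 nt in D6 libraries. The differences from D0 were -4.51 nt (SE 13.9), -3.23 nt (SE 9.47) and 2.32 nt (SE 9.23) at D2, D4 and D6, with adjusted p of 0.964, 0.953 and 0.949. Days overlapped throughout. Id1 differed from D0 by -0.47 nt (SE 14.7, adjusted p = 0.997) at D4 and by 0.04 nt (SE 14.7, adjusted p = 0.999) at D6. Id1 at D2 and every comparison of Id4 with D0 included a library under 5 reads and were not tested. The 101 Id4 reads of D6 had a median tail of 111.5 nt, with library medians of 78.5, 123 and 120 nt, and the 13 reads of D0 a median of 81.2 nt.

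Over all genes, 2.82%, 2.52% and 3.91% were called for median tail at D2, D4 and D6 against D0, out of 3339, 4970 and 5135 tested. These calls rest on the weights by reads: without weights limma called 0, 0 and 1 genes for median tail, and 261, 418 and 611 had an unadjusted p under 0.05. For the share of tails under 30 nt, 0.18%, 0.101% and 0.214% of genes were called on these days by unweighted limma, and no tested member. Weighted by reads, limma called none at D2 or D4 (251 and 475 genes with an unadjusted p under 0.05) and 32 genes higher and 8 lower at D6. For the share of tails of 30 to 90 nt no gene was called by unweighted limma (0.0% on each day), although 223, 401 and 521 genes had an unadjusted p under 0.05 and limma weighted by reads called 111, 141 and 162 genes. Tails under 30 nt made up 5% of the Id3 reads of D0, 2.94% of those of D2, 3.87% of those of D4 and 3.72% of those of D6, with exact 95% intervals from 0.611% to 16.9%, 0.358% to 10.2%, 2.35% to 5.98% and 2.10% to 6.06% that cover counting error only. For Id2 this share lay between 0.952% and 5%. The 30 to 90 nt class held 20% of Id3 reads at D0 and 26.1% at D6, and 22.9% and 25.8% of Id2 reads.

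Tails of Id2 and Id3 were above the median of all mRNA reads in every library. All mRNA reads had a median tail of 88.3 to 102 nt in the 12 libraries, and the medians of Id1 were above it in 10 of 12 libraries and those of Id4 in 7. Some of these Id1 and Id4 medians rest on 1 read. The median gene was at 115 nt, above Id4 (106.5 nt) and below the other members. Averaged over libraries with weights by reads, the tail of Id2 was longer than that of 79.6% of the 9355 genes, that of Id3 longer than 69.3%, that of Id1 longer than 64.0% and that of Id4 longer than 30.3%. These ranks are a description with no test, and the weights favour the days on which a gene had most reads.

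**Figure D3:**
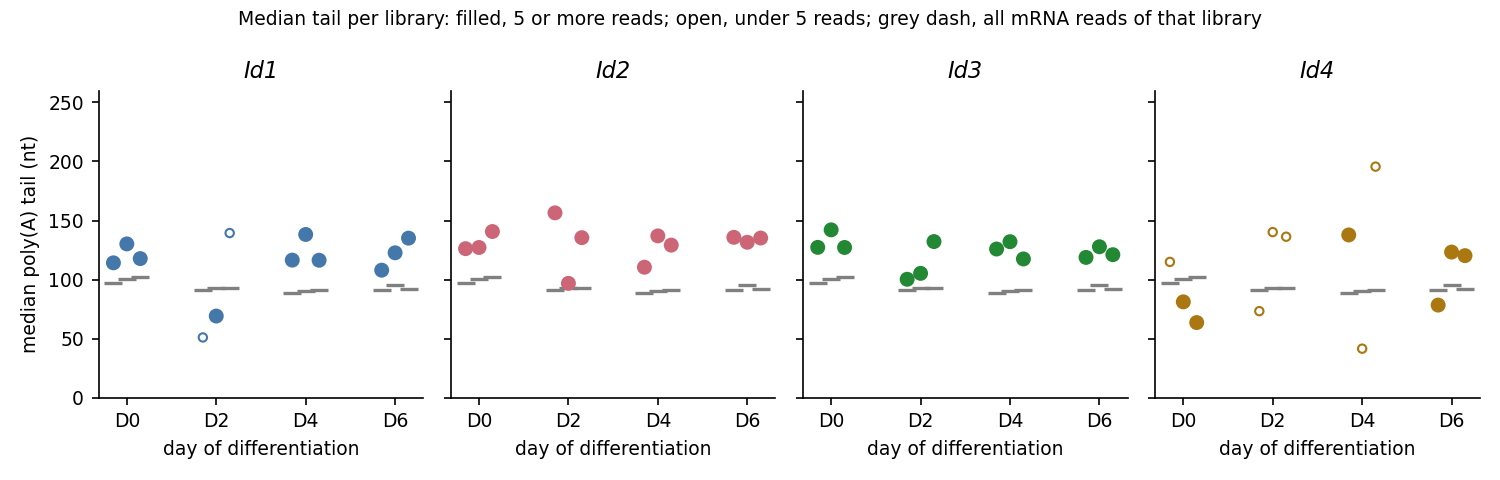
Median poly(A) tail in nt (y axis) of Id1, Id2, Id3 and Id4 in each library by day, filled for 5 or more reads and open for fewer, with the median of all mRNA reads of the same library as a grey dash. Id2 and Id3 lie above the dashes on every day, and Id4 scatters widely where it has few reads.

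The last aligned base of each read gives the 3′ end of the molecule. These ends were examined after the other data had been seen. Ends within 30 nt of a common base were taken as a site when they held at least 10% of the reads of a gene, and each of the 7 sites found is given as the 30 transcript bases that lead up to it, with the polyadenylation signal in capitals, either the canonical AATAAA or its commonest variant with T as the second base.
Id1, chr2:152737381-152737410, plus strand: ttgttgttATTAAAcaaacactttagataa
Id2 proximal, chr12:25093935-25093964, minus strand: atacaaAATAAAtcaagtgtgtttattgaa
Id2 distal, chr12:25093799-25093828, minus strand: aagattatAATAAAatgtgtctgacatcaa
Id3, chr4:136145358-136145387, plus strand: acattttgcatAATAAAccatttttgaaca
Id4 proximal, chr13:48263581-48263610, plus strand: agatatttttaATTAAAtattttttgtaaa
Id4 middle, chr13:48264484-48264513, plus strand: aaaATTAAAagtagatttatctgtcttgta
Id4 distal, chr13:48265997-48266026, plus strand: ctcctgtactAATAAAtcaatcttcactga
Each of the 7 windows held a signal, and from its first base to the last base of the window there were 19 to 27 bases, both included. Id1 and Id3 each ended at a single site, with 94.9% and 98.1% of their reads. The 3′ untranslated region of Id2 ended at either of 2 sites 136 nt apart, and that of Id4 at 3 sites, the first 2416 nt and the second 1513 nt upstream of the annotated end.

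The proximal site took 58.3% of all Id4 reads, the middle site 17.4% and the annotated end 15.9%. Of the 101 D6 reads, 63 ended at the proximal, 18 at the middle and 13 at the distal site. Of the 13 D0 reads, 5, 1 and 3 did so, of the 7 D2 reads 5, 1 and 1, and of the 11 D4 reads 4, 3 and 4. The pooled share of the proximal site thus rests mostly on D6. The proximal share was 33.3% ± 30.6 (SD, n = 3) at D0 and 63.0% ± 7.43 at D6 (exact permutation p = 0.2). The D0 libraries held 3 to 5 reads each, and this test cannot go below 0.10, so it could call no difference. At D6 the median tail was 106 nt for reads of the proximal, 118 nt for the middle and 168 nt for the distal site.

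The distal end of Id2 took the larger share of its reads on every day. The distal share was 85.1% ± 8.15 in D0 and 81.0% ± 16.6 in D2 libraries, and it was 73.3% ± 1.68 by D4 and 72.9% ± 2.26 by D6. The D0 libraries did not overlap those of D4 or of D6, and the exact permutation p was 0.10 for each, the smallest possible. The gap was narrow, with the lowest D0 library at 75.7% and the highest at 74.6% for D4 and 74.5% for D6. Without 1 library the difference from D0 ran from -16.4 to -9.11 points at D4 and from -16.9 to -9.58 at D6. The proximal share was 14.9% ± 8.15 at D0, 25.2% ± 3.13 at D4 and 25.5% ± 2.55 at D6, where the libraries overlapped (p = 0.2 by the exact permutation test for each). The D0 values rest on 31, 37 and 37 reads. At D0 the median tail was 143.5 nt on the 16 proximal and 129.9 nt on the 89 distal Id2 reads. On the later days it was 123, 105 and 129 nt on 8, 42 and 48 proximal reads. On 31, 126 and 135 distal reads it was 135.5, 139.6 and 135.9 nt. These medians pool the reads of a day, and the difference between sites was not tested.

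**Figure D4:**
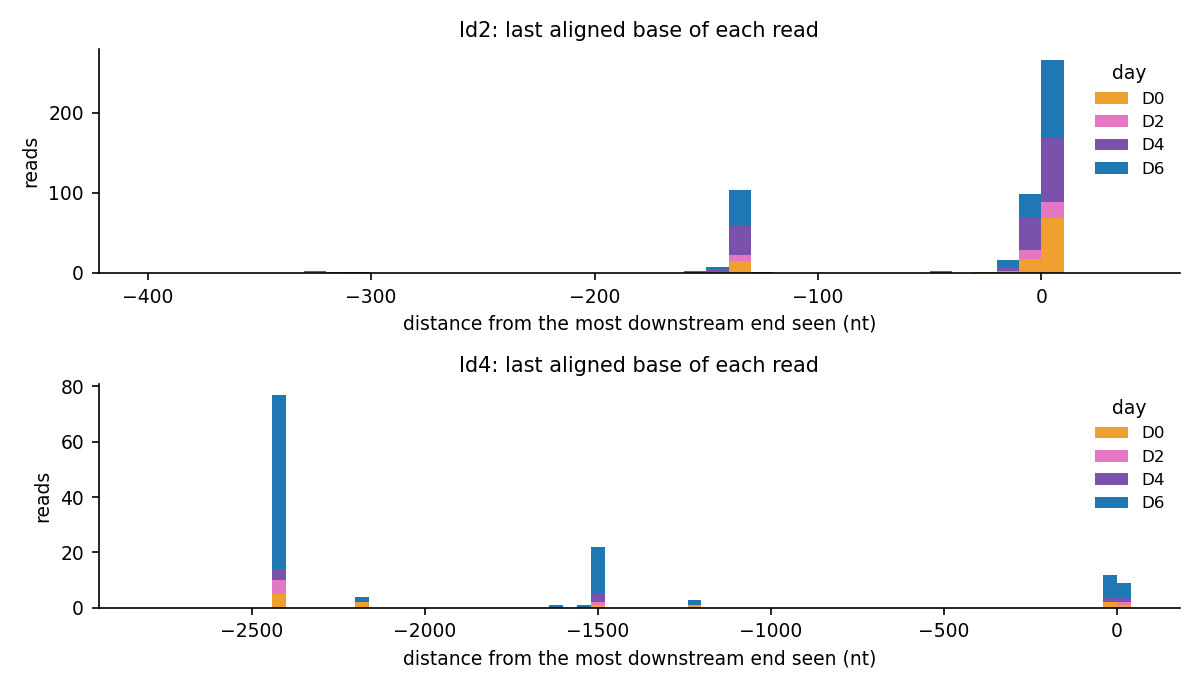
Number of reads (y axis) by the distance of their last aligned base from the most downstream end seen (x axis, nt), stacked by day, for Id2 (10 nt bins) and Id4 (40 nt bins). Id2 has 2 clusters 136 nt apart and Id4 has 3, with most Id4 reads 2416 nt upstream of the distal end.

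The members' upstream pathway was read from lists of BMP components written from general knowledge. Of 13 BMP ligands and related factors, 8 had reads and 4 could be tested. Bmp4, an inducer of Id genes in many tissues, had 5 reads in all 12 libraries, and Bmp2 and Bmp6 had none. At D6 compared with D0, 3 of 4 were called higher (19.4% of all genes) and 1 lower (18.1%), and the list's median was log2 2.52, against 0.02 over all genes. The risers had most of their reads on the later days and passed the minimum of 30 reads through them, so neither the count nor the median supports a rise of the list. Bmp7 rose from 3.70 to 25.3 CPM (log2 2.48, SE 0.56, adjusted p = 0.000311). The other risers do not signal as BMPs: Gdf11, an activin-type ligand, went from 2.41 to 23.4 CPM (adjusted p = 0.000149), and Bmp1, a procollagen-cleaving protease, from 1.29 to 10.9 CPM (13 reads at D6 against 2 at D0, a ratio of 8.38 with an exact counting interval from 1.90 to 76.4). The Bmp1 call was lost without the third D0 library (adjusted p = 0.0532, limma-voom). Gdf3, a Nodal-related factor of pluripotent cells, fell from 206 to 15.7 CPM (log2 -3.64, SE 0.33, adjusted p = 3.83e-13).

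Of 5 receptors tested, none was called at D2 or D4. Of all genes, 4.72% were called higher and 6.06% lower at D2, and 12.9% and 12.5% at D4, so with 5 genes nothing is read from that. At D6 Acvr2a (9.54 to 34.1 CPM, log2 1.95, SE 0.46, adjusted p = 0.000522) and Bmpr2 (14.2 to 32.6 CPM, log2 1.20, SE 0.39, adjusted p = 0.0126), both type II receptors, were higher. The Bmpr2 call was lost without the second D0 library (adjusted p = 0.0521, limma-voom). Bmpr1a, the main type I receptor by reads, went from 28.6 to 41.4 CPM (adjusted p = 0.0975). Acvr1 was at 9.78 CPM at D0 and 6.23 at D6 (adjusted p = 0.561), and Acvr2b at 9.05 and 9.04 (adjusted p = 0.953). Of 5 SMADs tested, Smad1, a direct transducer of BMP signals, rose from 11.1 to 23.2 CPM at D6 (log2 1.31, SE 0.49, adjusted p = 0.0299), and Smad2, a transducer of activin signals, from 19.6 to 36.9 CPM (log2 0.84, SE 0.33, adjusted p = 0.0397). Both SMAD calls were lost without a minimum of reads and with a replicate block in the fit, and each without any of several single libraries. Adjusted p then rose to as much as 0.264 for Smad1 (without the first D0 library) and 0.154 for Smad2 (without the third D6 library). Smad5 was at 26.8 and 41.8 CPM (adjusted p = 0.0867), Smad4, the partner shared by all receptor SMADs, at 30.1 and 29.2 (adjusted p = 0.935), and Smad3 at 27.2 and 27.9 (adjusted p = 0.972). Each list had 2 of 5 genes called higher at D6, where 19.4% of all genes were, and none called lower.

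Of 14 inhibitors of the pathway all had reads and 7 could be tested. At D2, 3 of 7 were called lower (6.06% of all genes), at D4 4 of 7 (12.5%) and at D6 3 of 7 (18.1%). None was called higher, where 4.72%, 12.9% and 19.4% of all genes were, and with 7 genes nothing is read from that. The median log2 fold change of the list was -1.10, -1.08 and -0.55 on these days, against -0.04, 0.01 and 0.02 over all genes. Fst and Bambi passed the minimum of 30 reads only through D0, so neither the counts nor the medians support a fall of the list. Fst, follistatin, which traps activins and some BMPs, had 77.6 CPM at D0, a single read on each of D2 and D4, and no read at D6, and was at least 31.3-fold lower at D6 with 3 reads over the day as the floor. Bambi, a decoy receptor that is itself induced by BMP, fell from 45.8 to 4.31 CPM at D6 (log2 -3.26, SE 0.57, adjusted p = 5.57e-06), and Fstl1 from 65.2 to 32.6 CPM (log2 -0.94, SE 0.28, adjusted p = 0.00654). Twsg1 was called lower at D4 (log2 -1.27, SE 0.34, adjusted p = 0.00399) but not at D6 (log2 -0.55, SE 0.28, adjusted p = 0.109). Smurf2, a ubiquitin ligase that removes receptors and SMADs, was at 38 CPM at D0 and 49.1 at D6 (adjusted p = 0.279). Nog, the BMP antagonist noggin, had too few reads to be tested and is named here after its values were seen: 23 of its 28 reads came from D0.

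Of other genes that BMP is known to induce, only 3 of 15 listed symbols could be tested. Atoh8, a bHLH factor, had 2.03 CPM at D0 and then 32.4, 21.9 and 12.7 CPM, with 16 reads at D6 against 3 at D0 (ratio 6.87, exact counting interval 1.97 to 36.8), and was called higher on all 3 days. Its D6 call was lost without the second D0 library (adjusted p = 0.171, limma-voom) or the second D6 library (adjusted p = 0.132). Hey1, which also answers to Notch, rose from 16.5 to 52.5 CPM at D6 (log2 1.73, SE 0.37, adjusted p = 0.000183), and Bambi fell as described. Gata2 had 14 and Zcchc12 23 reads in all, too few to be tested.

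The E proteins are the main binding partners of Id proteins. Among the 3 E proteins, Tcf12 rose from 31.7 to 118 CPM at D6 (log2 1.91, SE 0.24, adjusted p = 5.28e-09) and Tcf4 from 20.4 to 42.4 CPM (log2 0.97, SE 0.32, adjusted p = 0.0138), while Tcf3, the most abundant at D0, was at 115 and 117 CPM (log2 0.04, SE 0.18, adjusted p = 0.883). The Tcf4 call was lost without the second D0 library (adjusted p = 0.0567, limma-voom). Tcf12 was also called at D4 (log2 0.88, SE 0.27, adjusted p = 0.0115). At D0 the summed CPM of the 3 E proteins was 149 to 177 and that of the 4 Id genes 134 to 149, and at D6 it was 262 to 300 against 588 to 637.

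The tissue bHLH activators, which E proteins carry to DNA, are the factors that Id proteins indirectly restrain. Of 23 listed, 15 had reads and 7 could be tested, and 4 of 7 were called higher at D2, 6 at D4 and all 7 at D6, with none lower, on days when 4.72%, 12.9% and 19.4% of all genes were called higher. A gene at 0 on D0 could pass the minimum of 30 reads only by being high later, so the count of 7 is no support for a rise of the list. Neurog1 had no read at D0 and 18.9, 54.9 and 110 CPM on the later days, at least 56.3-fold higher at D6. Neurog2 was at 7.20 CPM at D0, 8.60 at D4 and 42.9 at D6 (log2 2.47, SE 0.46, adjusted p = 1.81e-05), called at D6 and not at D2 or D4, as Id4 was. Neurod4 and Nhlh1, which act later in neuronal differentiation, had no D0 read and were at least 23.2-fold and 22.3-fold higher at D6. Neurod1 went from 1.29 to 24.0 CPM (28 reads against 2, ratio 18.0, exact counting interval 4.55 to 156).

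Most Hes and Hey proteins are bHLH repressors that act below Notch and, like Id proteins, hold back neurogenesis. Of 4 tested, 1 was called higher at D2 (4.72% of all genes), 3 at D4 (12.9%) and 3 at D6 (19.4%). Hes5 passed the minimum of 30 reads only through the later days, so the counts are no support for a rise of the list. Hes5 had 1.12 CPM at D0 and 141, 288 and 254 CPM at D2, D4 and D6 (311 reads at D6 against 2 at D0, ratio 200.3, exact counting interval from 55.0 to 1662). By day means its order, D4, D6, D2 and D0, was that of Id3. As for Id3, D6 was not called different from D4 (log2 -0.19, SE 0.15, adjusted p = 0.493, limma-voom). Hes6, which opposes Hes1 and is an exception on this list, rose from 17.8 to 92.3 CPM at D6 (log2 2.31, SE 0.31, adjusted p = 2.79e-08). Hes1 was called higher at D4 (log2 0.68, SE 0.25, adjusted p = 0.0348) and stood at log2 -0.69 (SE 0.32, adjusted p = 0.0815) at D6. Hes3 had 26 reads, 16 of them at D4, and was not tested.

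Of 8 other partners of Id proteins tested, 2 were called higher at D6, or 25%, near the 19.4% of all genes. Both passed the minimum of 30 reads mainly through the later days. Pax2, a paired-domain factor of the neural tube, had no D0 read and was at least 9.88-fold higher at D6 (18.5 CPM), and Rb1, the retinoblastoma protein that Id2 binds, went from 3.41 to 12 CPM (SE of the log2 fold change 0.70, adjusted p = 0.0220, but 0.354 without the second D0 library). Huwe1, a ubiquitin ligase, was called lower at D4 only (log2 -0.72, SE 0.22, adjusted p = 0.00994), and Cops5, Usp1, Fzr1 and Rbl1 were called on no day. Usp1, which removes ubiquitin from Id proteins, was at 61.1 CPM at D0 and 83.7 at D6 (adjusted p = 0.0904). Of the 5 CDK inhibitors that Id proteins are known to keep low, only Cdkn1b could be tested, and it rose from 34.6 to 63.1 CPM at D6 (log2 0.88, SE 0.26, adjusted p = 0.00560, but 0.0702 without the second D6 library), while Cdkn1a had 6, Cdkn2a 14, Cdkn2b 2 and Cdkn1c 1 reads in all.

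**Figure D5:**
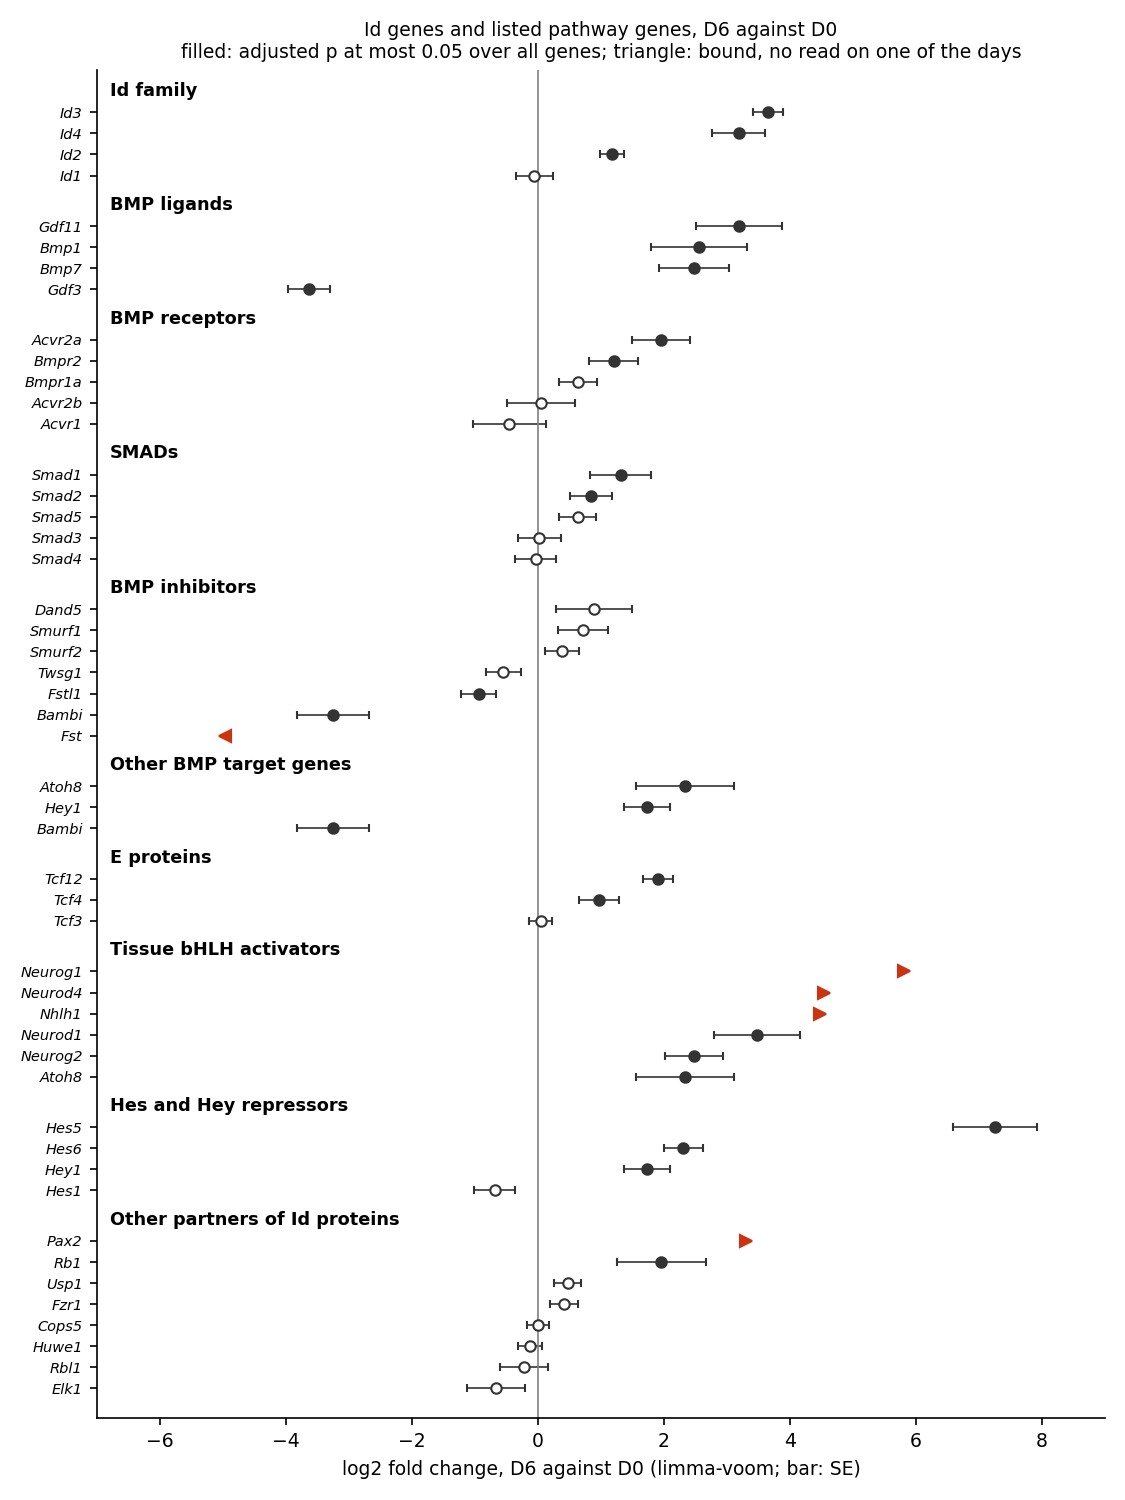
Fitted log2 fold change of D6 against D0 (x axis) with its SE (bar) for the Id genes and the tested genes of 9 lists (1 gene left out), filled where the adjusted p was at most 0.05 over all genes. Triangles mark the bound for genes without a read on one of the days. Id3 and Id4 lie beside Gdf11, Bmp7 and the bHLH activators on the right, and Fst, Gdf3 and Bambi lie on the left.

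The genes most like each member over the 12 libraries were sought by Pearson correlation of log2 CPM among 2819 genes with a mean of at least 20 reads. The points share libraries and days, and r is given as a description. Genes so chosen share a member's high and low days largely by selection, which lends those days no support. For Id3 these included Hmgn2 (r = 0.982), Hoxb6 (0.981), Jpt1 (0.976) and Hoxa5 (0.975). The Hox genes are known targets of retinoic acid, and Hoxb6, without a read at D0, had 43.4, 275.7 and 417.9 CPM on the later days. For Id2 they were Ddah2 (0.956), Dbn1 (0.947), Nefl (0.940), Laptm4a and Map1lc3a (0.935 each). Dbn1 and Nefl encode cytoskeletal proteins of neurons, and Nefl went from 14.2 to 8.61, 180 and 158 CPM. For Id4 they were Mien1 (0.893), Fyn (0.855), Atp6v0b (0.853), Traf4 (0.841) and Mapre2 (0.816), all at their highest on D6. For Id1, Ppp1r14b (0.872), Tulp4 (0.859), Rnf187 (0.848), Cul3 (0.846) and Acot7 (0.844) came first, each with its lowest mean at D2. Among the members themselves, Id2 and Id3 were the most alike (r = 0.82), and Id1 and Id3 were unrelated (r = -0.08).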

How the data were processed

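Nanopore direct RNA libraries of P19 cells, 3 for each of D0, D2, D4 and D6, were read from the authors' deposited table, which has 1 line per read alignment. Per the authors' methods, Guppy gave the base calls and the reads were aligned to mouse transcripts (mm10, GENCODE) with Minimap2 (version 2.20 per the submitters' processing notes), with poly(A) tails and quality tags from Nanopolish and barcodes from Deeplexicon. The deposited table gives mapping quality as a score from 0 to 60, barcode confidence as a fraction from 0 to 1, and tail length and alignment position in nt. A second deposited table holds only the authors' own log2 fold changes and adjusted p-values and was not used here.

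Of 6306365 lines (69 malformed lines were dropped), 289260 had no barcode, and 4625696 of the rest were PASS reads of class mRNA (mitochondrial transcripts and pseudogenes of that class included). Reads were tallied per gene and library. No table of counts was used here, and the tallies made here were tested with limma-voom (limma 3.58.1, R 4.3.3), with 1 fit over the 12 libraries, TMM factors computed in the script (0.930 to 1.09), genes of at least 30 reads and Benjamini-Hochberg adjustment over all genes of a comparison, called at 0.05. Median tails (weighted by reads) and tail classes (unweighted) were compared by limma over the libraries of the 2 days, in genes with at least 5 reads in every library and 10 on average. Exact permutation tests were two-sided. The fits were also run on simulated data, whose outcome is not reported here and backs no result. Abundance changes were simulated only in genes with more reads than Id1 and Id4 had. Sites of 3′ ends, and the alternatives on them and on the lists, were chosen after seeing the data. Exact intervals cover counting error only, and fitted intervals of a fold rest on the spread between libraries.

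Members and lists were chosen with earlier results of these data known. Named were the 4 members and, from each list, the 5 genes with most reads and every gene called at D6 against D0, and the 5 genes most like each member that averaged 10 or more reads a library. Nog and the listed genes named as having no read were chosen after their values were seen. Promoters are from RefSeq (GRCm38.p6), which matched Id2, Id3 and Id4 but not Id1, and transcripts and coordinates from GENCODE M21 on mm10, whose positions equalled those of the table for all Id transcripts with reads. The alternatives tried were other scalings, read minima, filters on reads and runs, a replicate block, tail limits and weights, and leaving out each library. Markers of cell types are given mainly as sums, and some other genes so named are not reported here.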

Additional observations from a re-analysis of the deposited data

Results flagged for a closer look

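Reads whose barcode could not be called belong to no library and enter no comparison. Among them, 54 reads of the 4 Id genes carried the quality tag PASS, above the limit of 3 reads that a count of 0 allows. That limit is no comparison with other genes: of 6306365 lines of all genes and tags, 289260 had no barcode. Id3 had 31 of these reads, Id2 had 14, Id1 had 5 and Id4 had 4.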

How the results depend on the processing

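Id3 at D2, D4 and D6, Id2 at D4 and D6 and Id4 at D6 stayed called in the same direction against D0 under every alternative that gave a value. Without D2 replicate 2, the rise of Id2 from D2 to D4 was no longer called (range without 1 library 0.83 to 1.41), and without D4 replicate 3 the Id3 difference of D6 from D4 was called (range -0.40 to -0.21). The rise of Id4 from D4 to D6 stayed called but was at 2.59 without D4 replicate 3 (range 2.59 to 3.88). It was at 2.71 with limma-trend and a pseudocount of 2 reads, changed together. The sign of uncalled differences turned under some settings. With library totals alone, Id1 at D6 and Id2 at D2 were both at 0.09. With libraries thinned to the smallest, Id1 was at 0.76 (D6 against D0) and -0.57 (D4 against D2), and with no turn of sign at -0.44 (D2), -1.01 (D4) and 1.77 (D6 against D4), Id2 at 0.35 and Id4 at -0.29 (D2 against D0). With all quality tags Id2 was at 0.18 (D2) and Id4 at 0.10 (D4), and with limma-trend and that pseudocount they were at 0.08 and 0.17. With only runs that name their day (at D6, since no D0 run names its day and all were kept) Id2 was at -0.19 (D6 against D4). Without single libraries the ranges were -0.20 to 0.16 for Id1 at D6, -0.32 to 0.27 for Id2 at D2, and -0.74 to 0.59 (D4 against D0) and -1.24 to 0.03 (D4 against D2) for Id4. The cause was not tested. Id2 had no value at a mapping quality of at least 10, and Id4 none in 3 comparisons with the libraries of 2 days only.

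The replicate numbers were not taken to pair the libraries, from their levels: same-numbered libraries of different days correlated at -0.133 to 0.184 over 2819 genes, 4 of 18 pairs were over 0.1, and 15 of 36 correlated best with their own number. Pairs of different number correlated at -0.205 to 0.174, with 2 of 36 over 0.1, so a weak pairing was not excluded. Over all mRNA reads, however, replicate 2 was the deepest and replicate 1 the shallowest library on each of the 4 days, and the share of tails under 30 nt was highest in replicate 2 and lowest in replicate 3 on each. The study's methods use the same set of barcodes for the replicates of every day. The replicate number may thus stand for the barcode, and its part in this pattern was not tested. With the replicate block, Id4 was at 0.05 (D4 against D0), the Id1 median tail at 2.80 nt (D4) and the SMADs called higher at 0.

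No member's tail was called under any alternative. Signs turned for the Id1 median tail at D4 without weights (2.98 nt) and at D6 on the log2 scale (-0.00203) or at a mapping quality of at least 10 (-6.0 nt). They also turned for the Id1 share under 30 nt at D6 with only named runs (2.57 points) and for its 30 to 90 nt share (2.38, 1.84 and 0.799 points with weights, with limits of 25 and 95 nt, and at a barcode confidence of at least 0.9). With mean tails, Id2 at D6 was at -2.44 nt and Id3 at 3.24 nt (D4) and 1.17 nt (D6). At a confidence of at least 0.9, the Id2 30 to 90 nt share at D2 was at -1.83 points and the Id3 share under 30 nt at 1.15 (D2) and 0.578 (D4).
For Id1, differences without 1 library ran from -6.77 to 7.33 for the median tail at D4, -5.72 to 7.04 for the median tail at D6, -3.47 to 2.78 for the share under 30 nt at D6, -0.83 to 13.9 for the share of 30 to 90 nt at D4, and -9.32 to 5.41 for the share of 30 to 90 nt at D6. For Id2, differences without 1 library ran from -12.1 to 10.1 for the median tail at D2, -8.74 to 1.7 for the median tail at D4, -0.114 to 7.25 for the median tail at D6, -0.901 to 4.36 for the share under 30 nt at D2, -5.43 to 12.4 for the share of 30 to 90 nt at D2. For Id3, differences without 1 library ran from -29.3 to -12.6 for the median tail at D2, -12.0 to -1.63 for that at D4, -12.7 to -3.87 for that at D6, -4.09 to 0.119 for the share under 30 nt at D2, -3.87 to 0.297 for the share under 30 nt at D4, -3.99 to 0.174 for the share under 30 nt at D6, -0.953 to 8.53 for the share of 30 to 90 nt at D4.

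Counts of listed genes called at D6 moved as well. With libraries thinned to the smallest, BMP ligands, SMADs, BMP inhibitors, other BMP target genes in both directions and other partners of Id proteins had 0 called, BMP receptors 1 and tissue bHLH activators 2. With at least 10 reads a library on average, which removes most listed genes, BMP ligands, BMP receptors, other partners and other BMP target genes called lower were at 0, SMADs, E proteins and other BMP target genes called higher at 1 and tissue bHLH activators at 2. SMADs were also at 0 with no minimum of reads, at a mapping quality of at least 10, with the transcript with most reads and with named runs only, and at 1 with all nuclear classes. BMP receptors were at 1 at a confidence of at least 0.9 and with named runs, E proteins at 1 at that confidence and at a mapping quality of at least 10, and other BMP target genes at 1 with the libraries of the 2 days. Other partners of Id proteins were at 4 with library totals, 5 with no minimum, 1 at a mapping quality of at least 10, and 0 with the libraries of the 2 days, at that confidence or with named runs. Without 1 library, BMP receptors ranged from 1 to 3, SMADs from 0 to 2, and other BMP target genes, E proteins and other partners each from 1 to 2.

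In the Id family, the summed CPM of the 4 genes at D0 was 132 with all quality tags, 109 at a mapping quality of at least 10 (which drops Id2), 117 thinned and 133 with library totals. At D4 it was 659 at that mapping quality, 639 with all nuclear classes and 653 without mitochondrial transcripts and pseudogenes. At D6 it was 680, 664 and 681 in that order, 636 at a confidence of at least 0.9, 574 with named runs, 634 thinned and 635 with library totals. The Id3 share of Id reads was 36.5%, 80.0%, 90.7% and 73.5% on the 4 days at a mapping quality of at least 10, 24.8% (D0) and 51.6% (D6) thinned and 57.2% (D6) with named runs.

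Over all genes, library totals alone moved the share of called genes that were higher from 43.8% to 62.1% at D2 and from 51.7% to 63.1% at D6, with median log2 fold changes of 0.10 and 0.17. For D2 against D0, 442 genes were called higher and 567 lower, compared with 992 and 705 with no minimum of reads, 1224 and 508 with limma-trend and a pseudocount of 2 reads together, and 142 and 177 thinned. Depth limits Id1 and Id4, whose lowest libraries held 1 read.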
